A study of Mus musculus with 6 samples.

Results

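Cholesterol and fatty acid synthesis were followed in mouse small intestine through 37 genes that sterol regulatory element-binding proteins (SREBPs) are known to drive, or that belong to the same routes. The genes were taken by symbol from the 45777 genes of the deposited table, each symbol matched 1 row, and all 37 passed the filter on low counts. They fall into a sterol arm of 21 genes (Hmgcs1 to Acat2) and a fatty acid arm of 16 (Acly to Acss2). Total RNA was sequenced from 3 libraries labelled PKCzeta overexpression and 3 labelled control with GFP, a green fluorescent protein that serves as a neutral cargo. PKCzeta, the product of Prkcz, is a signalling kinase of the atypical branch of the protein kinase C family. The design asked which transcripts differ once it is overexpressed. All 6 titles begin with DIO. What DIO stands for, the strain and age of the mice, the means of overexpression, the cells it reached and the segment of intestine sampled are not given in the sources used here.

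Total counts ran from 77573133 to 87572356 in the PKCzeta libraries and from 85411847 to 93742978 in the GFP libraries. Prkcz itself did not follow the labels, with 82.5, 100.1 and 57.0 CPM (counts scaled to library size) in the PKCzeta libraries against 70.5, 98.6 and 96.9 CPM in the GFP libraries. PKCzeta and GFP below therefore name the labels of the libraries, and every direction is one between labels. Ribosomal RNA took 0.956% to 4.44% of counts in the PKCzeta libraries and 1.35% to 4.66% in the GFP libraries. All 10 enterocyte markers passed the filter on low counts, which fits the labelled tissue. Nothing in the labels says that the libraries came from separate animals, so that p-values measure the spread between these libraries, which may be technical.

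SREBP2, made from Srebf2, is a membrane protein of the endoplasmic reticulum that is released when sterols run short, and it then turns on the genes that build cholesterol from acetyl-CoA. SREBP1, made from Srebf1, mainly drives fatty acid synthesis, and Srebf1 is itself a target of LXR, a nuclear receptor that senses oxidised sterols. INSIG proteins hold SREBPs in the membrane when sterols are plentiful. In the small intestine these routes run beside the uptake of dietary lipid, and the organ is known as a main site of cholesterol synthesis outside the liver.

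Promoters are shown for 5 of the 6 sterol arm genes whose CPM did not overlap between the labels. These genes were chosen by their values in these data, and the results that follow turn on them. Fdps was the other gene without overlap, and it had no promoter entry. RefSeq promoter windows (GRCm38.p6, the assembly that mm10 names) were found for 17 of 21 sterol arm genes and 13 of 16 fatty acid arm genes. Fdps, Fdft1, Sqle, Stard4, Scd1, Scd2 and Fads1 had no entry. The windows hold 250 bases before and 50 after the transcription start. Each line gives the 150 bases before the start, 5′ to 3′ on the gene's strand. They lie at chr13:119690201-119690350 on the plus strand for Hmgcs1, chr5:114444119-114444268 on the plus strand for Mvk, chr3:89454391-89454540 on the plus strand for Pmvk, chr8:122443423-122443572 on the minus strand for Mvd and chr5:4104698-4104847 on the minus strand for Cyp51. Capitals mark matches on either strand to a sterol regulatory element searched as TCACNCCAC, a CCAAT box searched by those 5 letters, a GC box searched as GGGCGG and an E-box searched as CACGTG. The marked matches do not overlap each other.
Hmgcs1: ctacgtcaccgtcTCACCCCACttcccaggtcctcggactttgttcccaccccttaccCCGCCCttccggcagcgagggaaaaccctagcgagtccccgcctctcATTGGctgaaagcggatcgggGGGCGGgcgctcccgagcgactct
Mvk: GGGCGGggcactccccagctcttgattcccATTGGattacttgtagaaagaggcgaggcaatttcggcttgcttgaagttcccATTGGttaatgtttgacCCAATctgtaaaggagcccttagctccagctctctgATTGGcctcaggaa
Pmvk: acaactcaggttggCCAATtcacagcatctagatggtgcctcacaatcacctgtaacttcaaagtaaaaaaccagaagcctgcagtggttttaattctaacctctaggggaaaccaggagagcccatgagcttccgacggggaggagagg
Mvd: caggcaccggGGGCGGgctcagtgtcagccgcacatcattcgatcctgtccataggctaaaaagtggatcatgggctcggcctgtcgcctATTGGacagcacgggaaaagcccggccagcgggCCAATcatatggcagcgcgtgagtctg
Cyp51: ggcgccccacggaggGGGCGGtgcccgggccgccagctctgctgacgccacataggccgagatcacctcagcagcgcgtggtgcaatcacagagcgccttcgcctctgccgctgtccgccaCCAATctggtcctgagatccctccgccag

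The Hmgcs1 match lay before the outermost start of its gene. The other sterol element match lay in the window of a later start, inside the span of Mlxipl (chr5:135089890-135139768). It is shown with its flanks, at chr5:135106735-135106783 on the plus strand.
Mlxipl: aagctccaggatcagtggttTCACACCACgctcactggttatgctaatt

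Of the 5 stretches before a start, Hmgcs1 held the sterol element as spelled, and each held at least 1 CCAAT box, with 4 in Mvk. Only that spelling was searched, so a sterol element spelled otherwise would not be marked. Over the whole windows, 16 of 17 sterol arm genes held a CCAAT box (94.1%), beside 10 of 13 fatty acid arm genes (76.9%) and 42.3% of 17492 protein-coding genes. A GC box was in 16 of 17 sterol arm genes (94.1%), in 7 of 13 fatty acid arm genes (53.8%) and in 49.2% of protein-coding genes. The sterol element as spelled was in Hmgcs1 of the sterol arm, in Mlxipl of the fatty acid arm and in 1.41% of protein-coding genes. An E-box was in 4 of 17 and 2 of 13 genes of the 2 arms and in 8.91% of protein-coding genes. The median GC content of the windows was 62.3% in the sterol arm and 62.6% in the fatty acid arm, against 56.3% in protein-coding genes, and its part in these shares was not tested.

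Per transcript length, the sterol arm held the more abundant transcripts. The deposited TPM (abundance scaled to transcript length and library size) averaged 211 ± 17.5 in PKCzeta and 139 ± 12.9 in GFP libraries for Hmgcs1, the cytosolic HMG-CoA synthase (SD, n = 3 each). Msmo1, which removes methyl groups from the sterol ring, had 191 ± 5.27 TPM in PKCzeta and 136 ± 19.6 TPM in GFP libraries. Sc5d, a late sterol desaturase, came next by the mean of all 6 libraries, at 78.9 ± 9.47 TPM in PKCzeta and 77.5 ± 3.98 TPM in GFP libraries. Among fatty acid arm genes the highest means were those of Elovl1, an elongase of very long chains (43.5 ± 2.41 TPM in PKCzeta, 49.2 ± 14.3 TPM in GFP), and Fads2, the delta-6 desaturase (45.5 ± 6.11 and 38.2 ± 10.9 TPM in the same order). Fasn, the fatty acid synthase, stood at 10.3 ± 5.53 TPM in PKCzeta and 8.04 ± 3.09 TPM in GFP libraries. Thrsp, a lipogenic regulator of liver and fat, was lowest of all 37 at 0.675 ± 0.193 TPM in PKCzeta and 0.739 ± 0.107 TPM in GFP libraries. The 21 sterol arm genes summed to 1056, 1083 and 1167 TPM in the PKCzeta libraries and to 881, 739 and 789 TPM in the GFP libraries. These sums did not overlap between the labels, while those of the 16 fatty acid arm genes did, at 283, 229 and 370.2 TPM in PKCzeta against 216, 259.5 and 247 TPM in GFP libraries. On TPM, 8.72% of all tested genes lay higher in PKCzeta libraries without overlap and 2.00% lower, and the sterol arm overlapped between the labels when averaged on the CPM scale.

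**Figure D1:**
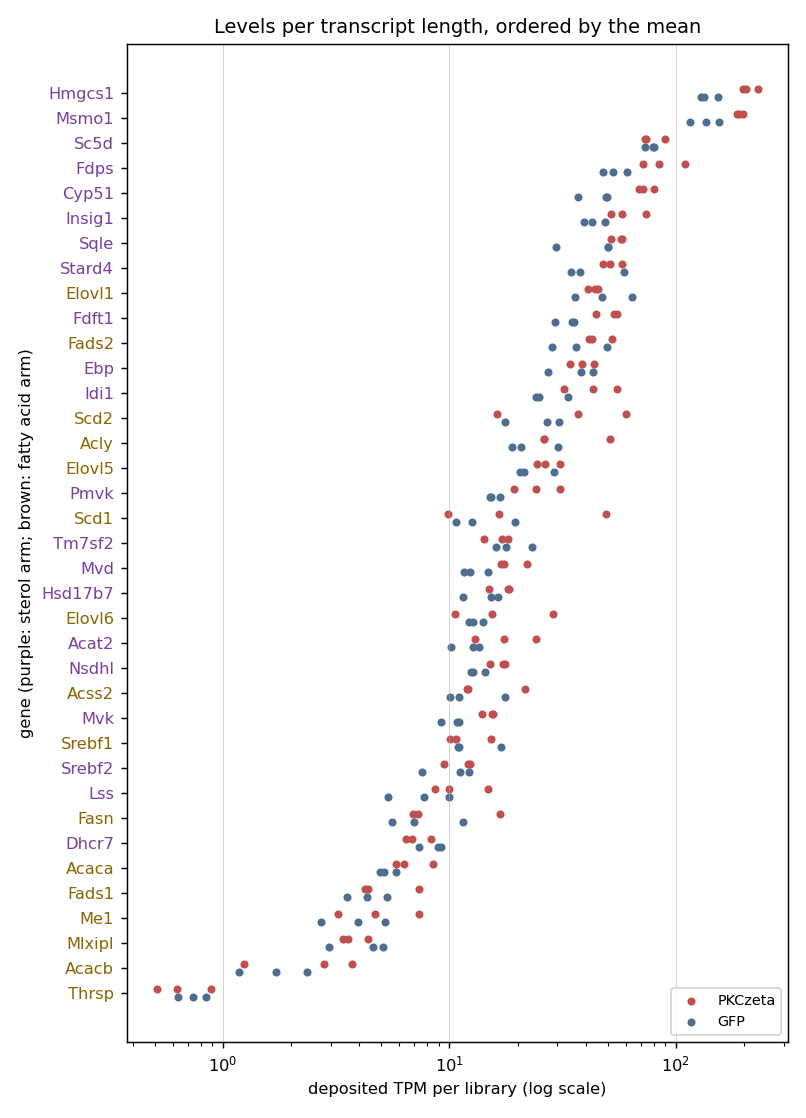
Deposited TPM of the 37 genes in each library on a log axis, ordered by the mean over 6 libraries; red points are the 3 PKCzeta libraries, blue points the 3 GFP libraries, and gene names are purple for the sterol arm and brown for the fatty acid arm. Hmgcs1 and Msmo1 lie at the top and Thrsp at the bottom.

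The question of which of these genes differ between the labels was answered with edgeR's quasi-likelihood test over 18456 genes. None of the 37 genes passed an adjusted p of 0.05, and the share called over all tested genes was 0%. DESeq2 gave an adjusted p to all members but Thrsp and called 0 of them, beside 0.566% of the 14493 genes it gave an adjusted p. In edgeR the smallest adjusted p of a member was 0.858. At an unadjusted p under 0.05, 3 members had higher values in PKCzeta libraries and 0 had lower ones, where 5.48% of all tested genes passed, 2.41% higher and 3.07% lower. By sign alone, 26 members were higher in PKCzeta libraries and 11 lower, where 54.3% of all tested genes were higher. CPM ranges of the labels did not overlap for 7 of the 37 genes, all with higher values in PKCzeta libraries, where 10.4% of all tested genes did not overlap and 4.72% did not overlap and were higher. Of these 7, 6 belong to the sterol arm. The levels given next are CPM, differences are log2 fold changes, PKCzeta minus GFP, each given with its SE (standard error), and a member is described as higher or lower by its values alone. In whole tissue, a smaller number of cells of a type and less RNA per cell cannot be told apart.

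**Figure D2:**
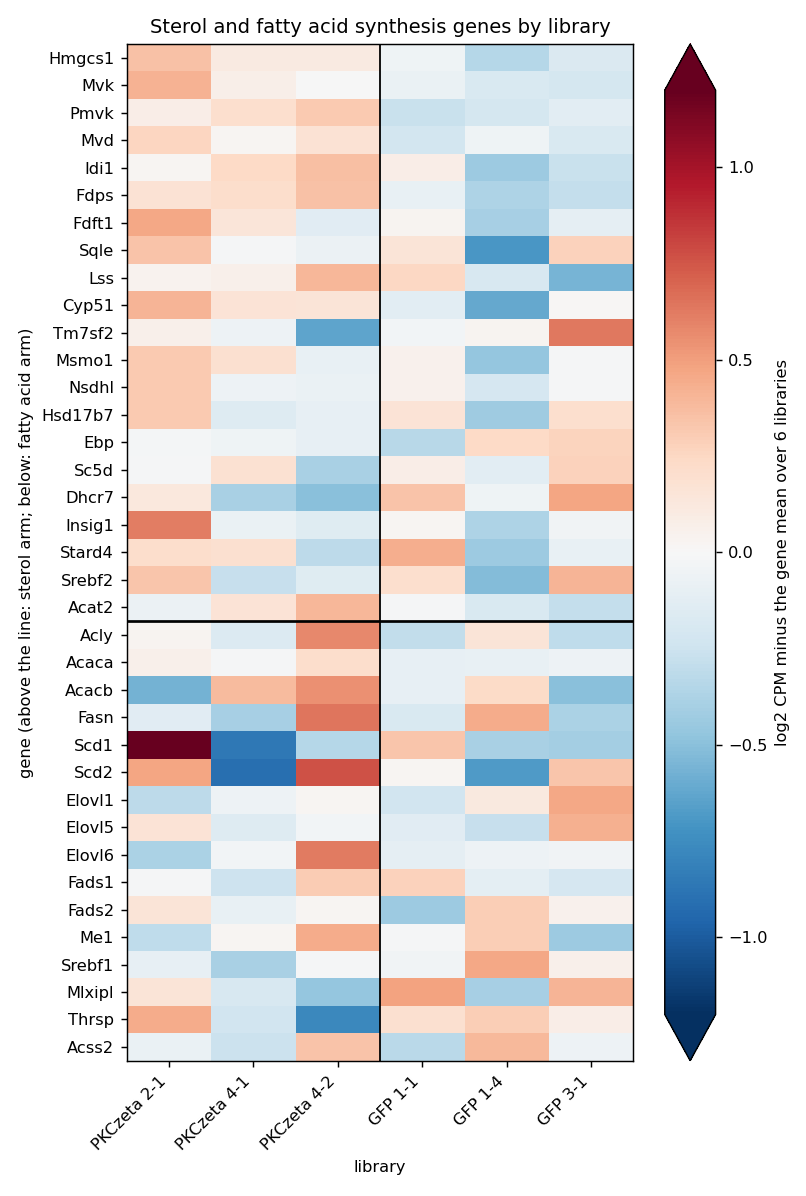
Log2 CPM of each gene minus its mean over the 6 libraries (colour), with PKCzeta libraries in the left columns and GFP libraries in the right ones; genes above the line form the sterol arm and those below it the fatty acid arm. The rows from Hmgcs1 to Fdps are mostly red in PKCzeta and blue in GFP libraries, GFP 1-4 is pale to dark blue in most sterol rows, and Scd1 in PKCzeta 2-1 passes the colour range.

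**Figure D3:**
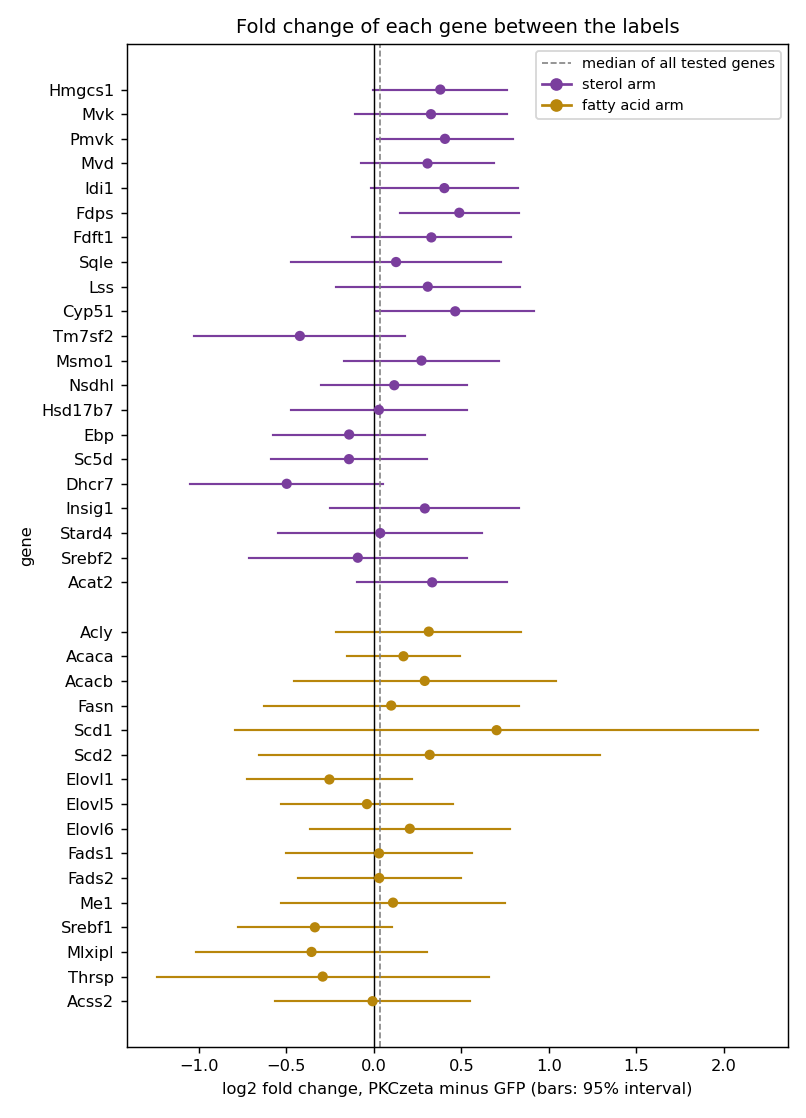
Log2 fold change of each gene, PKCzeta minus GFP (points), with its 95% interval from edgeR (bars); purple marks the sterol arm, brown the fatty acid arm, and the dashed line the median of all tested genes. All 7 genes from Hmgcs1 to Fdft1 lie above 0, from 0.31 to 0.49.

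The steps from Hmgcs1 to squalene had higher values in PKCzeta libraries for all 7 genes, between 0.31 and 0.49 in log2 fold change (median 0.38), beside a median of 0.035 over all tested genes. Fdps, which makes farnesyl diphosphate, had 77.1, 79.2 and 87.0 CPM in the PKCzeta libraries, against 64.4, 52.9 and 56.2 CPM in the GFP libraries. Every PKCzeta library lay above every GFP library. The log2 fold change of Fdps was 0.49 (95% interval 0.15 to 0.83, SE 0.15), the smallest p among the 37 genes (0.0107, adjusted p 0.858 in edgeR). Pmvk, the phosphomevalonate kinase, had 19.4, 21.1 and 22.8 CPM in PKCzeta against 15.2, 15.9 and 16.7 CPM in GFP libraries. Its groups did not overlap either, and the log2 fold change was 0.41 (95% interval 0.019 to 0.79, SE 0.17, adjusted p 0.888 by edgeR).

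Hmgcs1, which commits acetyl units to the mevalonate route, had 603, 508 and 507 CPM in PKCzeta against 454, 372 and 417 CPM in GFP libraries. All 3 PKCzeta values were above all 3 GFP values, and the log2 fold change was 0.38 (95% interval -0.0030 to 0.76, SE 0.17, adjusted p 0.915 by edgeR). Mvk, the mevalonate kinase, had 22.5, 17.7 and 16.8 CPM in PKCzeta against 15.998, 14.9 and 14.6 CPM in GFP libraries. The gap between the groups was narrow, and PKCzeta 2-1 stood apart from the other 2 PKCzeta libraries. Its log2 fold change was 0.33 (SE 0.19, adjusted p 0.917 by edgeR). Mvd, the decarboxylase that ends the mevalonate steps, had 25.9, 21.9 and 24.4 CPM in PKCzeta against 18.6, 20.9 and 19.0 CPM in GFP libraries. These ranges did not overlap, with a log2 fold change of 0.31 (SE 0.16, adjusted p 0.917 by edgeR).

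Idi1, the isomerase that makes the isoprene unit ready for chain growth, had 77.7, 90.2 and 98.4 CPM in PKCzeta against 81.1, 56.7 and 63.7 CPM in GFP libraries. GFP 1-1 lay above PKCzeta 2-1, so the groups overlapped, and the log2 fold change was 0.40 (95% interval -0.017 to 0.82, SE 0.18, adjusted p 0.917 by edgeR). Fdft1, the squalene synthase, had a log2 fold change of 0.33 (SE 0.20). The span of Fdft1 overlaps Ctsb, whose mean count is 328% of that of Fdft1, and no source used here says whether reads were assigned by strand. Acat2, the cytosolic acetyl-CoA acetyltransferase that supplies Hmgcs1 and is not among the 7, had 0.33 (SE 0.19) with overlapping ranges. The 7 genes and Acat2 kept a positive difference in each of 14 alternative analyses, of which 6 left out 1 library each, and none passed the threshold in any of them. For Hmgcs1, Mvk, Pmvk, Mvd and Fdps, whose ranges did not overlap, leaving out 1 library could hardly turn the sign.

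The steps from squalene to cholesterol did not share one direction. Of 10 genes, 6 had higher and 4 lower values in PKCzeta libraries, and their log2 fold changes ran from -0.50 to 0.46 around a median of 0.072. Cyp51, the lanosterol demethylase, had 261 CPM in PKCzeta 2-1, 219.5 CPM in PKCzeta 4-1 and 218 CPM in PKCzeta 4-2, against 180 CPM in GFP 1-1, 128 CPM in GFP 1-4 and 199 CPM in GFP 3-1. The groups did not overlap, GFP 1-4 was lowest, and the log2 fold change was 0.46 (95% interval 0.012 to 0.92, SE 0.20, p 0.0455 and adjusted p 0.902 in edgeR). Dhcr7, the reductase of the last step of the Kandutsch-Russell route, had 17.6, 12.4 and 11.4 CPM in PKCzeta against 20.5, 15.6 and 22.4 CPM in GFP libraries. PKCzeta 2-1 lay above GFP 1-4, and the log2 fold change was -0.50 (95% interval -1.05 to 0.054, SE 0.24, adjusted p 0.917 by edgeR), the lowest in the sterol arm.

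Among the other late enzymes, Lss (lanosterol synthase), Msmo1, Sqle (squalene epoxidase), Nsdhl and Hsd17b7, both sterol dehydrogenases, stood at 0.31, 0.27, 0.13, 0.12 and 0.028 on the log2 fold change scale (SE 0.18 to 0.26). Tm7sf2, a sterol C14 reductase, had -0.42 (SE 0.26), and its span overlaps Vps51, whose mean count is 96.1% of its own. Ebp, the sterol isomerase, and Sc5d both had -0.14 (SE 0.19 each), with overlapping ranges. The sign of Sqle, Hsd17b7, Nsdhl, Ebp and Sc5d turned in at least 1 of the 14 alternative analyses, while that of Cyp51, Lss, Msmo1, Tm7sf2 and Dhcr7 did not. For Cyp51, whose groups did not overlap, leaving out 1 library could hardly turn it.

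The regulators and carriers of the sterol arm overlapped between the labels. Srebf2 had 52.8, 34.5 and 37.9 CPM in PKCzeta against 48.3, 29.3 and 55.9 CPM in GFP libraries. The lowest and the highest value both lay in GFP libraries, the log2 fold change was -0.092 (95% interval -0.71 to 0.53, SE 0.27, adjusted p 0.973 by edgeR), and an exact permutation test, two-sided, gave p = 0.9 (0.1 is the smallest p that 3 against 3 libraries allow). Insig1, itself an SREBP target as well as the anchor that holds SREBPs back, had 164 CPM in PKCzeta 2-1 but 101 and 96.2 CPM in PKCzeta 4-1 and 4-2, against 108, 82.6 and 104 CPM in GFP libraries. The log2 fold change of 0.29 (SE 0.23, adjusted p 0.917 by edgeR) rested on PKCzeta 2-1, and without that library it was -0.034. Stard4, a carrier of cholesterol between membranes, had a log2 fold change of 0.036 (SE 0.25).

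On the deposited TPM scale the sterol arm lay further from 0, and so did the bulk of genes. The median log2 fold change of the sterol arm on log2(TPM + 1) was 0.49 in limma, beside 0.27 for the fatty acid arm and 0.14 for all tested genes. On TPM, 11 of 21 sterol arm genes had PKCzeta libraries above all GFP libraries, and 0 of 16 fatty acid arm genes did, where 8.72% of all tested genes were placed in that way. The 11 were Hmgcs1, Mvk, Pmvk, Mvd, Fdps, Fdft1, Sqle, Cyp51, Msmo1, Nsdhl and Insig1. The 4 genes Ebp, Sc5d, Srebf2 and Elovl5 had the other sign than on CPM there, as did Acss2, all at no more than 0.21.

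In the fatty acid arm, 10 genes had higher and 6 lower values in PKCzeta libraries, with a median log2 fold change of 0.065. For the making of acetyl-CoA and palmitate the median over 6 genes was 0.14. Acaca, the acetyl-CoA carboxylase of the cytosol, had 53.0, 50.3 and 58.8 CPM in PKCzeta against 47.5, 48.0 and 48.8 CPM in GFP libraries. It was the gene of this arm whose ranges did not overlap, yet its log2 fold change was 0.17 (95% interval -0.15 to 0.49, SE 0.14, adjusted p 0.917 by edgeR), and its span overlaps Gm11437, whose mean count is 30.5% of its own. Acly, which splits citrate into acetyl-CoA, had 96.8, 84.4 and 141 CPM in PKCzeta against 77.3, 105 and 76.8 CPM in GFP libraries. PKCzeta 4-2 and GFP 1-4 were its highest libraries, and the log2 fold change was 0.31 (SE 0.23, adjusted p 0.917 by edgeR).

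Fasn had the same 2 highest libraries, with 60.5, 50.5 and 104 CPM in PKCzeta against 58.6, 90.6 and 51.2 CPM in GFP libraries, and a log2 fold change of 0.099 (SE 0.32). Its log2 fold change was -0.26 without PKCzeta 4-2 and 0.38 without GFP 1-4. Me1, the malic enzyme that supplies NADPH, and Acss2, which activates acetate, had 0.11 (SE 0.28) and -0.0079 (SE 0.24). Acacb, the carboxylase of the mitochondrial surface, had 0.29 (SE 0.32). PKCzeta 4-2 and GFP 1-4 were the 2 highest libraries for 4 of the 16 fatty acid arm genes (Acly, Fasn, Me1 and Acss2), for 0 of the 21 sterol arm genes and for 16.4% of all tested genes.

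Among desaturases and elongases, Scd1 and Scd2 varied most between libraries of the same label. Scd1, the stearoyl-CoA desaturase that makes oleate, had 201 CPM in PKCzeta 2-1 but 34.8 and 49.9 CPM in PKCzeta 4-1 and 4-2, against 79.6, 48.3 and 47.8 CPM in GFP libraries. Its highest library was 5.77-fold above its lowest, the widest span of the 37 genes. The log2 fold change of 0.70 (95% interval -0.79 to 2.20, SE 0.64, adjusted p 0.917 by edgeR) turned to -0.51 without PKCzeta 2-1. Scd2, its neighbour and close relative on chromosome 19, had 169, 64.9 and 206 CPM in PKCzeta against 124, 76.2 and 153 CPM in GFP libraries, so that both its extremes lay under the PKCzeta label, and a log2 fold change of 0.32 (SE 0.42). No source used here says how reads shared by such related genes were assigned.

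Elovl1 had 63.0, 75.0 and 79.1 CPM in PKCzeta against 66.5, 84.7 and 108 CPM in GFP libraries. The groups overlapped, the log2 fold change was -0.25 (SE 0.20, adjusted p 0.917 by edgeR), and its span overlaps the cell division gene Cdc20, whose mean count is 23.7% of its own. Elovl6, which extends palmitate to stearate, had 107 CPM in PKCzeta 4-2 and 53.2 to 67.4 CPM in the other 5 libraries, with a log2 fold change of 0.20 (SE 0.25). Elovl5, Fads1 and Fads2, which build polyunsaturated chains, had -0.040 (SE 0.21), 0.029 (SE 0.23) and 0.030 (SE 0.20).

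The 3 lipogenic regulators had lower values in PKCzeta libraries, and none passed the test. Srebf1 had 39.1, 31.9 and 41.3 CPM in PKCzeta against 40.6, 57.7 and 43.6 CPM in GFP libraries. The ranges overlapped by PKCzeta 4-2 over GFP 1-1, GFP 1-4 stood highest, and the log2 fold change was -0.34 (95% interval -0.78 to 0.10, SE 0.19, adjusted p 0.917 by edgeR). The exact two-sided permutation p of Srebf1 was 0.2. Its span overlaps Rai1, whose mean count is 11.2% of its own. Mlxipl, which encodes the carbohydrate-responsive factor ChREBP, had 15.0, 11.8 and 9.76 CPM in PKCzeta against 18.8, 10.2 and 17.8 CPM in GFP libraries, with a log2 fold change of -0.36 (SE 0.29, adjusted p 0.917 by edgeR). Thrsp, at 0.354 to 0.828 CPM in PKCzeta and 0.642 to 0.743 CPM in GFP libraries, had -0.29 (SE 0.41). The signs of all 3 held in each of the alternative analyses in which they were fitted.

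Set against each other, the arms differed in their medians by 0.23 on the log2 scale (0.29 for sterol, 0.065 for fatty acid). Per library, the mean log2 CPM deviation over the sterol arm was 0.23, 0.041 and -0.022 in PKCzeta 2-1, 4-1 and 4-2, against 0.031, -0.29 and 0.0091 in GFP 1-1, 1-4 and 3-1. GFP 1-4 stood far below the other 5 libraries, and PKCzeta 4-2 lay below GFP 1-1 and GFP 3-1. For the fatty acid arm the deviation was 0.079, -0.22 and 0.18 in the PKCzeta libraries, against -0.041, 0.041 and -0.035 in the GFP libraries. Sterol minus fatty acid gave 0.15, 0.26 and -0.20 in PKCzeta against 0.073, -0.33 and 0.044 in GFP libraries. The arms parted most in PKCzeta 4-1 and in GFP 1-4, in opposite directions. The sterol arm was the lower one in PKCzeta 4-2 and GFP 1-4, and the labels overlapped.

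GFP 1-4 was the lowest library for 12 of 21 sterol arm genes (57.1%), for 1 of 16 fatty acid arm genes (6.25%) and for 20.5% of all tested genes. PKCzeta 2-1 was the highest for 10 of 21 sterol arm genes (47.6%), beside 14.5% of all tested genes. Without GFP 1-4 the median of the sterol arm was 0.18, that of the fatty acid arm 0.18 and their difference -0.0032, with 13 sterol arm genes higher in PKCzeta libraries. Without PKCzeta 2-1 the sterol median was 0.13, with 11 of 21 genes higher, beside a median of -0.016 for all tested genes. The fatty acid median was -0.068 without PKCzeta 4-2 and -0.0033 without PKCzeta 2-1.

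**Figure D4:**
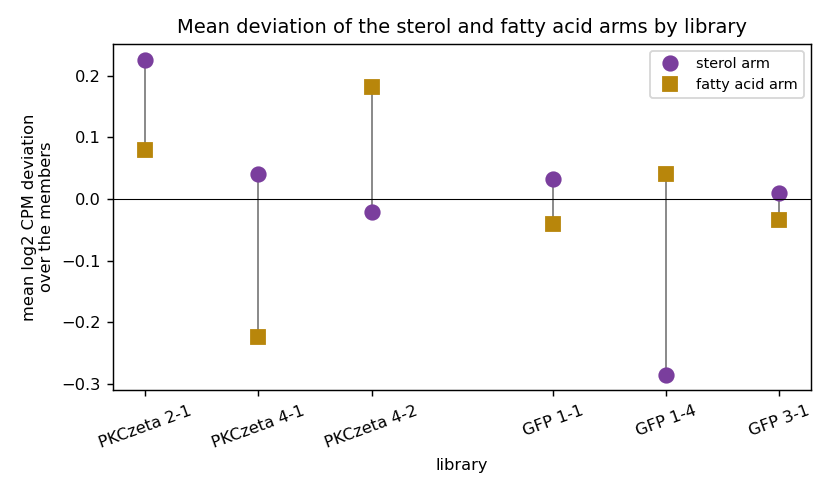
Mean log2 CPM deviation from each gene's 6-library mean, over the 21 sterol arm genes (circles) and the 16 fatty acid arm genes (squares), in each library; grey lines join the arms of a library. The sterol arm is lowest in GFP 1-4 (-0.29) and the fatty acid arm in PKCzeta 4-1 (-0.22).

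Other genes around the pathway were counted in 4 lists. Of 10 genes for SREBP processing and sterol sensing, 3 had higher and 7 lower values in PKCzeta libraries (median log2 fold change -0.080), and 0 passed the test. The smallest p values there were those of Insig2, the second INSIG anchor, at -0.42 (SE 0.27), and of Erlin1, a sterol-binding protein of the endoplasmic reticulum, at -0.40 (SE 0.27). Of 9 genes of the isoprenoid branch 6 were higher and 3 lower (median 0.10), with 0 past the test. Pdss2, which makes the side chain of coenzyme Q, had 0.26 (SE 0.26), and the farnesyltransferase subunit gene Fntb had -0.21 (SE 0.22). Of 15 tested genes of acyl chain elongation and supply, 8 were higher and 7 lower (median 0.024), with 0 past the test, and Elovl3 had no reads in any of the 6 libraries. G6pdx, the first enzyme of the pentose phosphate route, had -0.31 (SE 0.16) with ranges that did not overlap. Fads3, a desaturase-like gene named after its values were seen, had the only other ranges of this list that did not overlap, at 4.39, 4.49 and 4.44 CPM in PKCzeta against 3.34, 2.78 and 4.15 CPM in GFP libraries, with a log2 fold change of 0.38. Elovl4 had 1.05 (SE 0.58) at a mean of 0.363 CPM in PKCzeta and 0.174 CPM in GFP libraries.

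Most genes in the list of LXR and its targets lay on the other side of 0 from most sterol arm genes. Of 8 genes 7 had lower values in PKCzeta libraries (median log2 fold change -0.40), 4 of them at an unadjusted p under 0.05, and 0 passed the adjusted threshold in edgeR. Those 4 were also the ones whose ranges did not overlap, a position that 5.66% of all tested genes held. The rest of the list overlapped between the labels. The receptor genes Nr1h2 and Nr1h3 had -0.21 (SE 0.19) and -0.14 (SE 0.21). The targets Abcg1 and Mylip had 0.032 (SE 0.51) and -0.084 (SE 0.32), so the lower values were not shared by all targets. Abcg8, a subunit of the sterol exporter of the brush border, had 140.0, 139.9 and 92.0 CPM in PKCzeta against 209, 281 and 297 CPM in GFP libraries. Its log2 fold change was -1.08 (SE 0.22, adjusted p 0.858 by edgeR), and DESeq2 called it with an adjusted p of 0.0175. Abcg5, the partner subunit, had 204, 209 and 119 CPM in PKCzeta against 284, 366 and 391 CPM in GFP libraries, a log2 fold change of -0.97 (SE 0.25, adjusted p 0.858 by edgeR).

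Lpcat3, which builds polyunsaturated phospholipids, had 141, 150.5 and 131 CPM in PKCzeta against 191, 218 and 222 CPM in GFP libraries, a log2 fold change of -0.58 (SE 0.14, adjusted p 0.858 by edgeR). The span of Lpcat3 overlaps Emg1, whose mean count is 16.6% of its own, and those of Abcg5 and Abcg8 overlap each other. Abca1, the exporter of cholesterol to lipoproteins, had 100.4, 58.4 and 82.7 CPM in PKCzeta against 178, 137 and 133 CPM in GFP libraries, a log2 fold change of -0.89 (SE 0.23, adjusted p 0.858 by edgeR). Abca1, Abcg5, Nr1h2, Nr1h3, Abcg1 and Mylip were named after their values were seen. Abcg8, Abcg5, Lpcat3 and Abca1 kept a negative difference in each of the 14 alternative analyses. Their ranges did not overlap, so leaving out 1 library could hardly turn the sign, and those 6 analyses add no evidence for it. Marker values of several cell types are given next, and their part in the differences of these 4 genes was not tested.

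**Figure D5:**
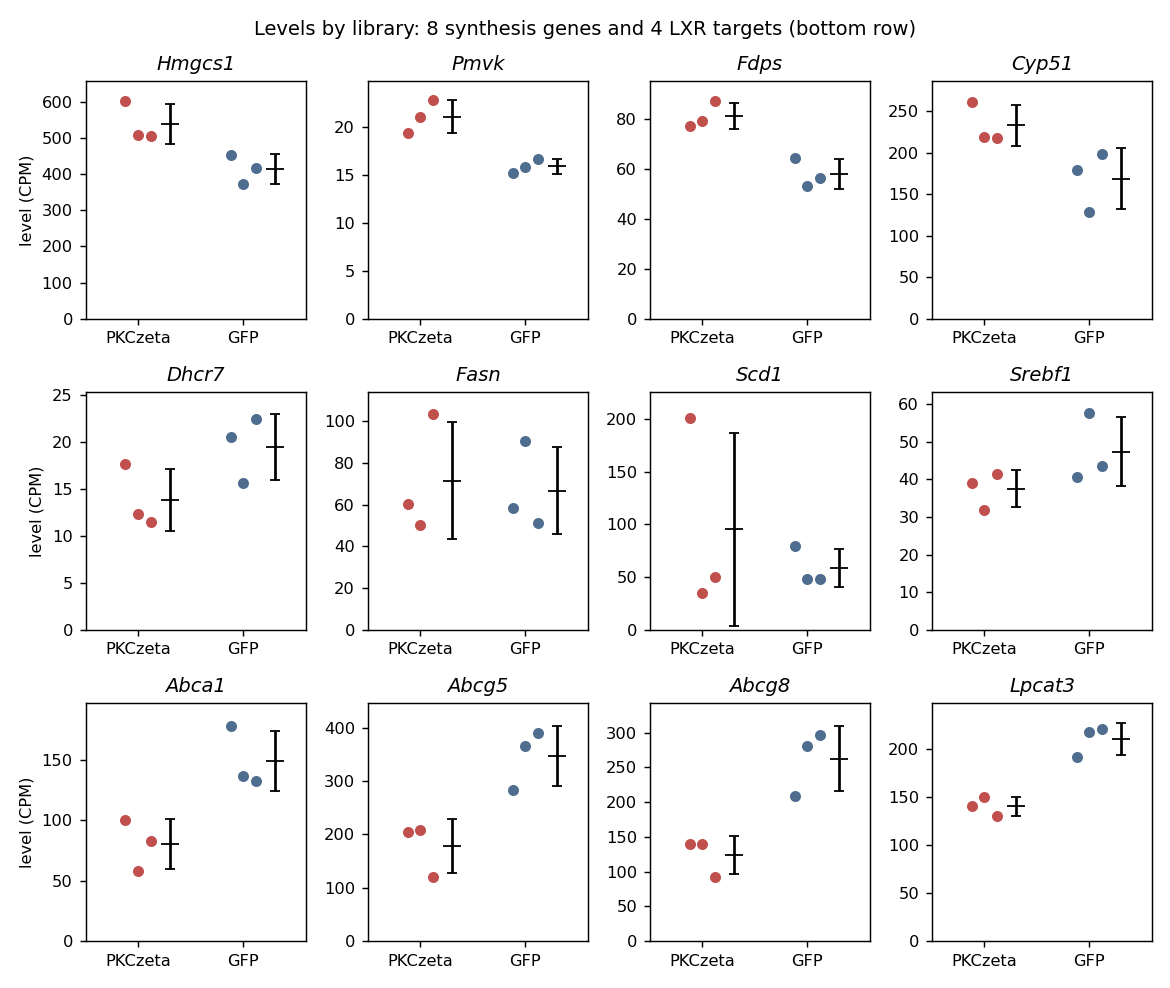
CPM of 8 synthesis genes (upper rows) and 4 LXR targets (bottom row), with 1 point per library, PKCzeta left and GFP right; black marks show the mean and SD of 3 libraries. Hmgcs1, Pmvk, Fdps and Cyp51 have all PKCzeta points above all GFP points, the bottom row has the reverse, and Dhcr7, Fasn, Scd1 and Srebf1 overlap.

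Summed levels of cell type markers did not overlap between the labels for some types and overlapped for others. All 10 enterocyte markers had lower values in PKCzeta libraries, and their summed level was 14147 to 28250 CPM in PKCzeta and 29377 to 39411 CPM in GFP libraries. Myeloid markers were higher in 6 of 6, at 187 to 234 CPM in PKCzeta and 82.9 to 175 CPM in GFP libraries. Cycling and stem markers were higher in 6 of 7 and overlapped, at 559 to 1031 CPM in PKCzeta and 656 to 936 CPM in GFP libraries, with the highest sums in PKCzeta 4-2 (1031) and GFP 1-4 (936). Adipocyte markers, from a tissue rich in the fatty acid arm, were higher in 4 of 8 and summed to 54.6 to 92.3 CPM in PKCzeta and 83.7 to 112 CPM in GFP libraries. Hepatocyte markers, from another lipogenic tissue, summed to 4.81 to 6.01 CPM in PKCzeta and 3.11 to 4.49 CPM in GFP libraries. Only 4 of the 6 hepatocyte markers passed the filter on low counts.

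Smooth muscle markers were lower in 6 of 6 and overlapped, at 899 to 1153 CPM in PKCzeta and 561 to 1341 CPM in GFP libraries, with the lowest sum in GFP 1-4. Neuron and glia markers were higher in 5 of 6, at 8.89 to 17.5 CPM in PKCzeta and 7.53 to 7.95 CPM in GFP libraries. Lymphoid markers summed to 820 to 1293 CPM in PKCzeta and 521 to 2148 CPM in GFP libraries, and goblet and Paneth markers to 8680 to 15497 CPM and 8555 to 16377 CPM in the same order. Pancreatic acinar markers summed to 4.36 to 4.99 CPM in PKCzeta and 3.67 to 4.38 CPM in GFP libraries, with Pnlip at 0 in all 6 libraries. None of the markers tested passed the adjusted threshold in edgeR. PKCzeta 4-2 and GFP 1-4 were the libraries in which the sterol arm lay below the fatty acid arm. They also held the lowest shares of mitochondrial RNA, 2.92% and 3.37%, against 5.67% to 10.7% in the other 4. Their shares of ribosomal RNA were the lowest too, 0.956% and 1.35%, against 2.33% to 4.66% in the other 4. The part of these cell types and of RNA composition in the differences of the synthesis genes was not tested.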

How the data were processed

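Total RNA of mouse small intestine was sequenced after ribosomal depletion with a stranded kit, per the labels' protocols. The submitters' processing notes name FastQC, Trimmomatic, HISAT2, StringTie and the mm10 build, without versions. The authors deposited, in 1 table, a read count, FPKM and TPM per gene for each of the 6 libraries. The sources used here do not name the counting program or its use of strand. FPKM were deposited by the authors and not used. The deposited TPM served for levels between genes and for 1 alternative.

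Counts were filtered (filterByExpr), scaled by TMM and tested with the quasi-likelihood test of edgeR 4.0.16 (R 4.3.3), with Benjamini-Hochberg adjustment over 18456 genes and a threshold of 0.05; the common biological coefficient of variation was 0.354. The method was tested on simulated data whose planted changes were larger than those of the members. That test says nothing on changes of the members' size, and its outcome is not reported here. CPM use TMM-scaled totals. DESeq2 1.42.0 and limma 3.58.1 (voom, or log2(TPM + 1)), other scalings and filters, and leaving out each library were the alternatives. Genes given in full were the regulators, the 6 smallest p per arm and those with non-overlapping ranges; from other lists, the 2 smallest p. Members and lists were chosen with earlier results of these data known. The LXR target values under each alternative were added after the data were seen. Gene positions and overlaps use the RefSeq annotation (GRCm38.p6). Intervals cover the modelled spread between libraries.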

Additional observations from a re-analysis of the deposited data

How the results depend on the processing

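None of the 37 genes was called in any of 14 alternative analyses, and DESeq2 was the only one to call any gene (82, against 0 in edgeR, where 1012 had an unadjusted p under 0.05). Of 517 comparisons of a member with its reported value, 40 had the other sign, in 17 members, and 20 members kept their sign throughout. For the 7 members whose ranges did not overlap, leaving out 1 library could hardly turn the sign. At an unadjusted p under 0.05, in either direction, the sterol arm held 3 genes as reported, 10 on log2(TPM + 1), 5 under voom and 1 without PKCzeta 4-1, and 2 or 3 in the other alternatives; the fatty acid arm held 0, or 1 without GFP 1-4. No paired analysis was possible because the PKCzeta and GFP labels share no replicate number. Within a label the first number repeats, in PKCzeta 4-1 and 4-2 and in GFP 1-1 and 1-4. What that number stands for is not given, and the tests treat all libraries as independent.

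The sterol median was 0.49 and the fatty acid median 0.27 on log2(TPM + 1), where all genes had 0.14. Leaving out 1 library at a time, the sterol median ran from 0.13 (without PKCzeta 2-1) to 0.36, the fatty acid median from -0.068 to 0.18 and their difference from -0.0032 (without GFP 1-4) to 0.31. The causes were not tested.

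Signs turned for Acss2 with a mean of at least 1 CPM (0.0029), under voom (0.018) and on TPM (0.21), for Sqle (-0.0065), Hsd17b7 (-0.099) and Scd2 (-0.16) under voom, and for Ebp (0.10), Sc5d (0.020), Srebf2 (0.13) and Elovl5 (0.20) on TPM. With 1 library left out, log2 fold changes ran from -0.19 to 0.21 for Acss2, -0.18 to 0.21 for Elovl5, -0.12 to 0.35 for Elovl6, -0.12 to 0.17 for Fads1, -0.16 to 0.20 for Fads2 and -0.26 to 0.38 for Fasn. They ran from -0.17 to 0.14 for Hsd17b7, -0.034 to 0.43 for Insig1, -0.098 to 0.30 for Me1, -0.062 to 0.19 for Nsdhl, -0.28 to 0.0063 for Sc5d and -0.51 to 1.10 for Scd1. They ran from -0.0093 to 0.67 for Scd2, -0.12 to 0.31 for Sqle, -0.34 to 0.11 for Srebf2 and -0.14 to 0.29 for Stard4. Thrsp, under 1 CPM, was left out by the stricter filter.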
